A study of Homo sapiens with 6 samples.

Results

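The 52 genes described here encode the proteins that license origins of DNA replication and that make up the replisome, the machine that copies DNA at the fork. They were chosen by name: every probe set whose annotated symbol is one of the 52 genes was taken, and where a gene had several, the brightest by its mean over all 6 arrays represents it. This list, its role groups and the other lists read below were chosen with earlier results of these data known. All 52 were measured, among 19775 genes on the array. They fall into 6 groups by role: 9 genes of origin recognition and licensing, 17 of the helicase and its activation, 10 of the polymerases and primase, 9 of the clamp, its loaders and flap processing, 3 of single-strand binding and 4 of fork protection.

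The study used HCT116 cells, an established human colorectal carcinoma line, on 6 single-channel arrays. In 3 of them the cells had received 30 nM of a siRNA pool against CDK4 and 30 nM of 1 siRNA against CDK6, and in the other 3 they had received 30 nM each of the 2 matching control siRNA products. All cells were transfected with Lipofectamine RNAiMAX, and RNA was taken after 96 h. The labels call the 3 arrays of a group biological replicates and do not say that they were separate cultures, so the p-values measure only the spread between these arrays. Because CDK6 was targeted by a single siRNA, effects of that sequence on other transcripts and effects of losing CDK6 cannot be told apart.

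With a D-type cyclin bound, CDK4 or CDK6 adds phosphate to the retinoblastoma protein, which otherwise holds back E2F transcription factors, and E2F is known to drive many replication genes. In G1 the origin recognition complex, CDC6 and CDT1 load the MCM2 to MCM7 ring onto DNA, which licenses the origin. In S phase the kinases CDC7 and CDK2 convert the ring, with CDC45 and the GINS complex, into the active helicase, and polymerases, the sliding clamp PCNA and fork protection factors join it.

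Values are log2 expression from RMA, the robust multi-array average, and a change is the mean of the CDK4/6 siRNA arrays minus the mean of the control arrays. A gene was called when its p from limma, adjusted over all 19775 genes, was under 0.05. In this bulk RNA, a larger share of cells in a cell cycle phase and more RNA per cell cannot be told apart. CDK6 measured 8.81, 8.82 and 8.88 on the CDK4/6 siRNA arrays, against 10.42, 10.41 and 10.35 on the control arrays, which is 34.0% of the control level. CDK4 measured 9.45, 9.46 and 9.65 on the CDK4/6 siRNA arrays, against 10.26, 10.29 and 10.07 on the control arrays, or 62.2%. Both targets were lower on every CDK4/6 siRNA array than on any control array, and CDK4 RNA remained. Array medians lay between 5.36 and 5.39, and arrays correlated across genes at 0.998 within groups and at 0.991 to 0.994 between groups. Of 10 colon epithelial markers, the general epithelial ones were bright (EPCAM 12.74 in CDK4/6 siRNA cells and 12.80 in control cells), but the intestinal ones were dim: VIL1, CDX1, CDX2 and CDH17 all lay under the median level of all genes, 6.47. The summed epithelial level ran between 90.5 and 90.9 on the CDK4/6 siRNA arrays and between 90.1 and 90.9 on the control arrays, although within the list KRT8 and KRT18 rose and CDH1 and CLDN3 fell. The median levels of the fibroblast, leukocyte and endothelial markers were 5.17, 4.68 and 4.80, also under the all-gene median. Single markers of these lists moved: COL1A1, a fibroblast collagen whose level was above that median, averaged 7.59 in CDK4/6 siRNA cells and 8.09 in control cells (a change of -0.49, limma adjusted p = 0.000311), and ITGAM, of the leukocyte list, changed by -0.23 (limma adjusted p = 0.0247). The markers' part in the results was not tested. The 18 spike-in probe sets, control RNAs added at hybridisation, averaged 10.15 ± 0.054 on the CDK4/6 siRNA arrays and 10.25 ± 0.017 on the control arrays (SD, n = 3 each; two-sided exact permutation p = 0.1, the smallest that 3 arrays against 3 allow).

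Replication genes were mostly higher after CDK4/6 siRNA. Of the 52, 30 rose (57.7%, beside 14.0% of all genes), 1 fell (beside 12.9% of all genes) and 21 were not called. The median change was 0.33 on the log2 scale, 1.26-fold, beside -0.0011 over all genes. All genes include many dim ones, whereas the control means of the members ran between 5.87 and 11.64, beside an all-gene median level of 6.47. With the dimmest genes left out, 13183 genes remained, of which 2986 were higher and 2799 lower. In that fit 31 of the 52 members were higher and 2 lower. The changes of the 30 that rose ran between 0.26 and 1.11, with limma adjusted p between 0.000115 and 0.0454. All 3 CDK4/6 siRNA values lay above all 3 control values for 38 members and below them for 4, while 20.6% and 20.3% of all genes had such separated groups above and below. By role, 6 of 9 clamp genes, 11 of 17 helicase genes, 5 of 9 licensing genes, 5 of 10 polymerase and primase genes, 2 of 4 fork protection genes and 1 of 3 RPA genes rose, and these shares were not tested against each other. Scaling to the spike-ins shifted the all-gene median to 0.11 and the share of called genes that were higher to 78.2%, beside 52.0% without that scaling. Under it 38 members were higher and 0 lower, beside 23.9% and 6.68% of all genes.

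**Figure D1:**
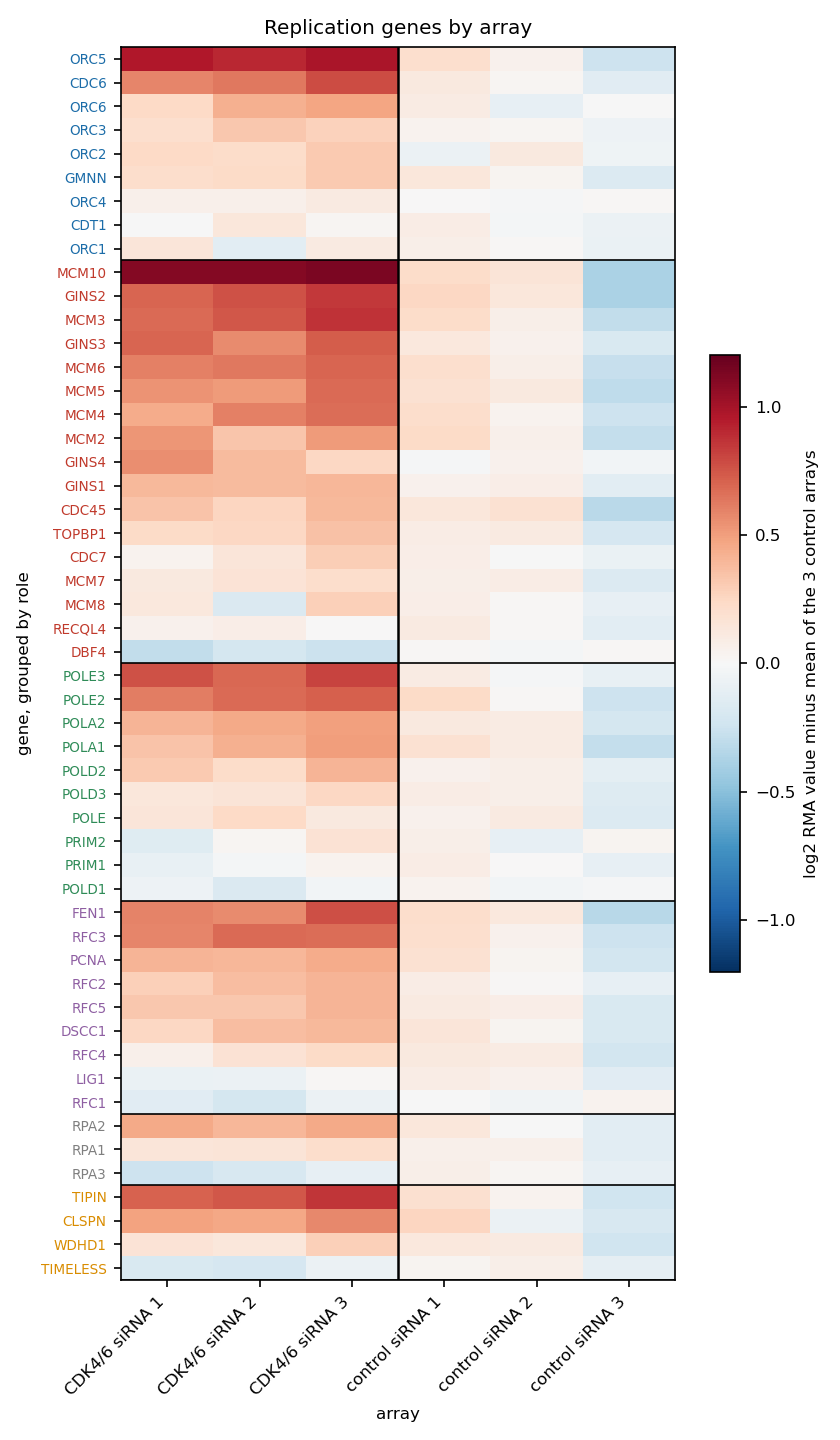
Each row is 1 of the 52 genes, grouped by role and sorted by change, and each column an array, with the 3 CDK4/6 siRNA arrays left of the 3 control arrays; colour is the log2 RMA value minus the mean of the 3 control arrays. The CDK4/6 siRNA columns are red for most rows, and the third control array is the bluest of the 3 control columns, with the lowest control value for 45 of the 52 genes.

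The replicates of a group did not lie at the same level for these genes. Averaged over the 52 members and set against the control mean, the CDK4/6 siRNA arrays stood at 0.30, 0.31 and 0.39, and the control arrays at 0.12, 0.045 and -0.16. Control replicate 3 held the lowest control value for 45 members, beside 40.1% of all genes, and control replicate 1 the highest for 40, beside 36.7%. The third CDK4/6 siRNA array held the highest value of its group for 43 members, beside 32.0% of all genes. The SD was larger among control arrays for 41 of 52 members, beside 51.8% of all genes, with a median SD of 0.066 among CDK4/6 siRNA arrays and 0.137 among control arrays. Without control replicate 3, 27 members were higher and 2 lower, with a median of 0.25. Whether this spread has a part in the calls was not tested beyond leaving out each array in turn, which gave between 24 and 31 members higher and a median between 0.25 and 0.39. Shares of all genes called in these reduced fits are not given here, so the counts cannot be read against them.

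**Figure D2:**
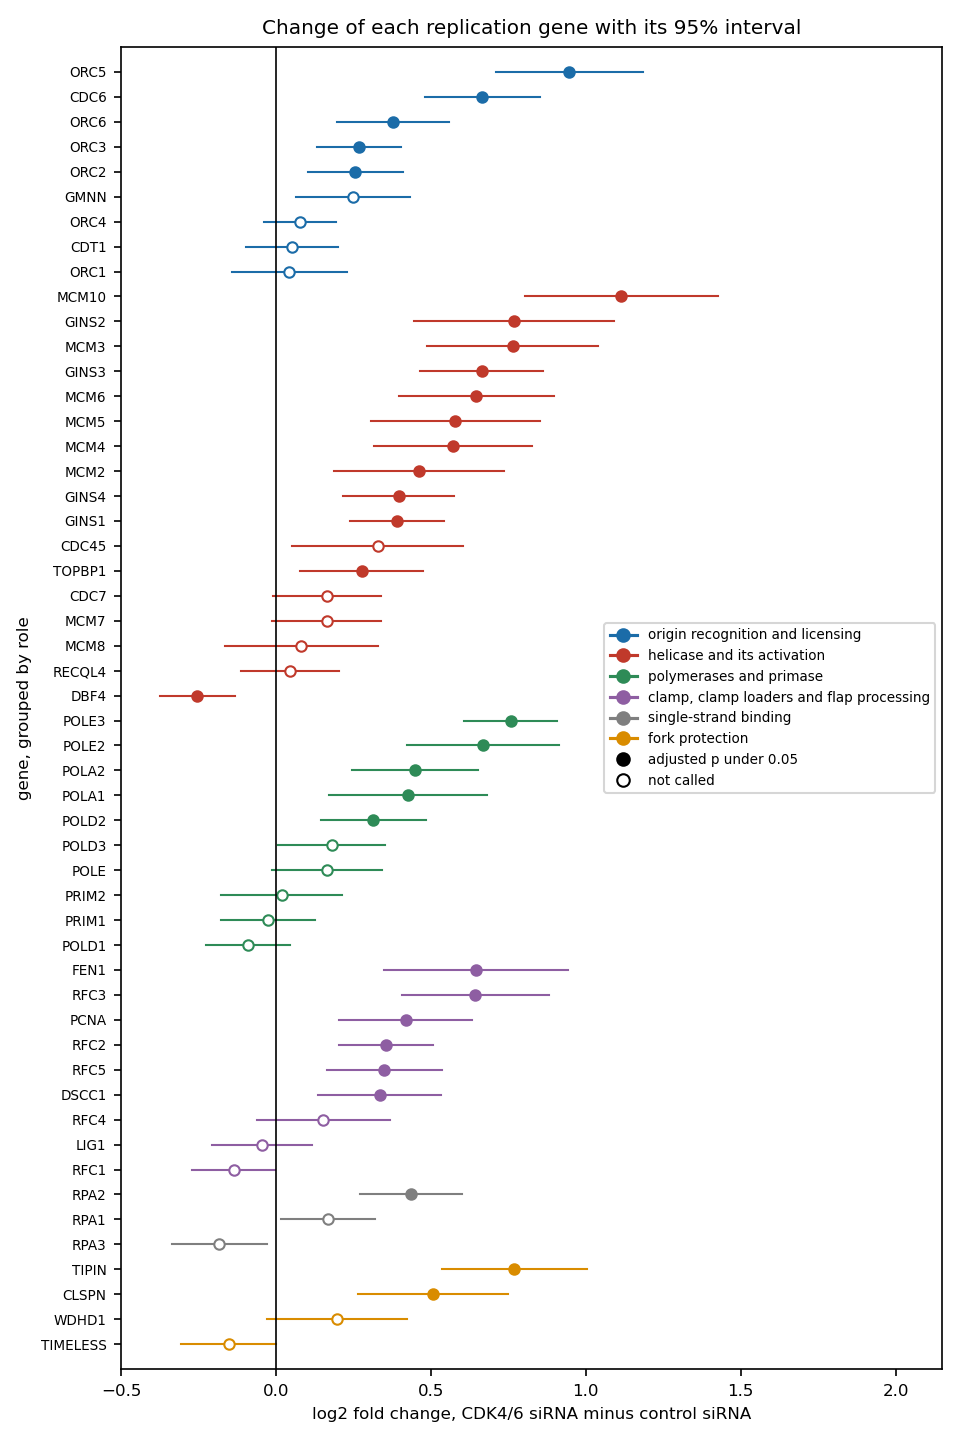
Points are log2 fold changes (CDK4/6 siRNA minus control siRNA) and lines their 95% intervals from limma, with filled points for genes at an adjusted p under 0.05 and colours for the 6 role groups. MCM10 at 1.11 and ORC5 at 0.95 lie farthest right, and DBF4 at -0.25 is the only filled point left of 0.

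Promoter sequence is shown for some members because E2F is the factor through which CDK4 and CDK6 are known to reach these genes. RefSeq windows of 300 bases, 250 before to 50 after the gene start on GRCh38.p14, were searched on both strands for 4 sets of E2F-type letters, TTTCCCGC, TTTGGCGC, TTTCGCGC and TTTGCCGC, and for TTTGAA, the letters of the cell cycle homology region (CHR) known from genes of late S phase and mitosis. TTTGGCGC and the reverse complement of TTTCGCGC can share bases. Whole windows are given for the 4 genes with the largest changes among those described by array; shorter stretches around a match, for MCM6, MCM7, GINS2, CDC6 and DBF4, were picked after their values were seen. Capitals mark the letters searched for, sequences run 5′ to 3′ along the gene's strand, and positions count from the gene start. A match is a description of sequence only, and its absence says only that these letters are not in that window.

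Among the 9 licensing genes, ORC5, CDC6, ORC6, ORC3 and ORC2 rose, and ORC1, ORC4, CDT1 and GMNN were not called. The median change was 0.26. ORC5, a subunit of the origin recognition complex that binds origins, measured 9.62, 9.57 and 9.64 on the CDK4/6 siRNA arrays, against 8.87, 8.71 and 8.41 on the control arrays. Its groups were far apart, and the change was 0.95 (SE 0.105, 1.93-fold, limma adjusted p = 0.000307). CDC6, the ATPase that brings the MCM ring to the complex, measured 8.76, 8.82 and 8.96 on the CDK4/6 siRNA arrays, against 8.30, 8.20 and 8.04 on the control arrays. It too was higher on every CDK4/6 siRNA array, by 0.67 (SE 0.0814, 1.59-fold, limma adjusted p = 0.000488). The 2 genes differ in the letters of their start regions: the ORC5 window (chr7:104207964-104208263, minus strand) held none of the E2F-type letters searched, and CDC6 (chr17:40287866-40287913, plus strand, shown around its match) held TTTGGCGC at 8 to 15. The ORC5 window did hold TTTCCGGC, a near match to TTTCCCGC that was not searched for.
ORC5: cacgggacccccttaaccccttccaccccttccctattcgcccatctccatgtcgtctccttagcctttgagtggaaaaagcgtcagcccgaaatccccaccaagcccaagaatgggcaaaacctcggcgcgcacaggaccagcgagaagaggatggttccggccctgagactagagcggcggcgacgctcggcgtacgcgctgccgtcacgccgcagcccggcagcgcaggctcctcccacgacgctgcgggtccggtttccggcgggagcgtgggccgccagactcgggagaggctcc
CDC6: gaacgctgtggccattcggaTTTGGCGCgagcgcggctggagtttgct

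The other subunits of the origin recognition complex moved less. ORC6 measured 9.56, 9.75 and 9.79 on the CDK4/6 siRNA arrays, against 9.42, 9.22 and 9.32 on the control arrays, a rise of 0.38 (SE 0.08, limma adjusted p = 0.00747). ORC3 measured 9.31, 9.43 and 9.39 on the CDK4/6 siRNA arrays, against 9.15, 9.13 and 9.05 on the control arrays, a rise of 0.27 (SE 0.0598, limma adjusted p = 0.00996). In both genes the groups did not overlap. ORC2, another core subunit, rose by 0.26 (limma adjusted p = 0.0213), a call that was lost without CDK4/6 siRNA replicate 3, without control replicate 1 or without control replicate 3 (adjusted p = 0.0794, 0.0725 and 0.0731). ORC1, the subunit whose level is known to swing with the cell cycle in human cells, measured 6.88, 6.61 and 6.85 on the CDK4/6 siRNA arrays, against 6.81, 6.75 and 6.65 on the control arrays. Its groups overlapped, and the change of 0.04 had a 95% interval of -0.14 to 0.23 (limma adjusted p = 0.768). ORC4 changed by 0.08 and was not called (95% interval -0.04 to 0.19), but its second probe set was higher by 0.30, and with the mean of both the change was 0.19 (adjusted p = 0.017). CDT1, the partner of CDC6 in loading, changed by 0.05 (95% interval -0.10 to 0.20). GMNN encodes geminin, the inhibitor of CDT1, and its change of 0.25 (95% interval 0.06 to 0.43) had a limma adjusted p of 0.0508. GMNN was called higher in 6 of 16 alternatives, among them the mean of all probe sets (adjusted p = 0.0454) and spike-in scaling (adjusted p = 0.00665). The interval of CDC6 lies wholly above that of CDT1, though both act in the same loading step, and the interval of ORC5 lies wholly above those of the 5 other ORC subunits. Pairs such as CDC6 with CDT1, ORC5 with ORC1, MCM3 with MCM7 and TIPIN with TIMELESS were picked after the values were seen. Setting the intervals of different genes side by side, here and below, is a description and not a test of their difference. Taken within each array, CDC6 minus CDT1 differed between the groups by 0.61 and ORC5 minus ORC1 by 0.90. Each had a two-sided exact permutation p of 0.1, the smallest that 3 arrays against 3 allow.

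The helicase genes held the largest single change and the only fall. Of 17 genes, 11 rose and 1 fell, with a median of 0.40. MCM10, which binds the helicase and is needed for it to open the origin, measured 8.35, 8.34 and 8.38 on the CDK4/6 siRNA arrays, against 7.46, 7.40 and 6.86 on the control arrays. The CDK4/6 siRNA arrays were nearly alike while the third control array lay well under the other two, and the change was 1.11 (SE 0.137, 2.16-fold, limma adjusted p = 0.000511). The MCM10 window (chr10:13161308-13161607, plus strand) held no match to the letters searched. It did hold TTTGGCGG, which differs from TTTGGCGC in its last letter and was not searched for.
MCM10: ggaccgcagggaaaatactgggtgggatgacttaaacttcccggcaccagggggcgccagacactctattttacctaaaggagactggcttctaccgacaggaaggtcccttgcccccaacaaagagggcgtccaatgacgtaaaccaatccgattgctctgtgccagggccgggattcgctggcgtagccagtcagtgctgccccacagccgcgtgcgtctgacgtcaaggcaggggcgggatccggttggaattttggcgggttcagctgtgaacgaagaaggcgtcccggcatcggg

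Of the 6 subunits of the MCM ring, 5 rose, and the median over the 6 was 0.58, 1.49-fold. MCM3 measured 10.42, 10.49 and 10.62 on the CDK4/6 siRNA arrays, against 9.97, 9.82 and 9.45 on the control arrays, a rise of 0.76 (SE 0.122, limma adjusted p = 0.00181). MCM6 measured 11.04, 11.07 and 11.14 on the CDK4/6 siRNA arrays, against 10.64, 10.50 and 10.16 on the control arrays, a rise of 0.65 (SE 0.11, limma adjusted p = 0.0025). Both genes were higher on every CDK4/6 siRNA array and lowest on control replicate 3. MCM5 rose by 0.58, MCM4 by 0.57 and MCM2 by 0.46, with limma adjusted p of 0.00671, 0.0051 and 0.0204. On the probe set whose name is plain, lacking the suffix for probes shared between transcripts, MCM5 stood at 0.39 and was not called (adjusted p = 0.0557). The MCM2 call was lost without CDK4/6 siRNA replicate 1 or 3 (adjusted p = 0.0664 and 0.0619). MCM7, the remaining subunit, changed by 0.16 (95% interval -0.01 to 0.34, limma adjusted p = 0.171), although its groups did not overlap. That interval lies below those of MCM3 and MCM6 and overlaps those of MCM2, MCM4 and MCM5. Its second probe set changed by 0.09 and was not called either, while spike-in scaling gave MCM7 0.27 with an adjusted p of 0.0251.

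All 4 ring genes with a window, MCM2, MCM3, MCM6 and MCM7, carried E2F-type letters there, MCM7 included. The MCM3 window (chr6:52284693-52284992, minus strand) held TTTCCCGC at -174 to -167 and TTTCGCGC at -4 to 4. The stretch of MCM6 (chr2:135876502-135876615, minus strand) held the 12 letters in capitals at -152 to -141 and again at -90 to -79, each a TTTGGCGC that shares bases with a reverse TTTCGCGC. MCM7 (chr7:100101379-100101426, minus strand) held TTTCGCGC at -9 to -2 and, outside the stretch shown, the reverse of TTTCCCGC at -187 to -180.
MCM3: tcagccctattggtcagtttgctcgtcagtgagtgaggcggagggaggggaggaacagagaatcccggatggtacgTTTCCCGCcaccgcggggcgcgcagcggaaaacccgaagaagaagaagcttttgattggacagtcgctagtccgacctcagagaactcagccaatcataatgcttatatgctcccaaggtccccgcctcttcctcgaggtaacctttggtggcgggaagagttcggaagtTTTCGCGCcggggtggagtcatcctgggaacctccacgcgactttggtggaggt
MCM6: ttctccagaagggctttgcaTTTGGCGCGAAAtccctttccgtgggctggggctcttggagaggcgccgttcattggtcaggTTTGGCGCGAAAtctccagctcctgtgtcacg
MCM7: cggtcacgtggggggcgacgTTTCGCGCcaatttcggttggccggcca

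All 4 genes of the GINS complex, which joins the MCM ring and CDC45 in the active helicase, rose, with a median of 0.53. GINS3 measured 7.92, 7.79 and 7.96 on the CDK4/6 siRNA arrays, against 7.35, 7.28 and 7.04 on the control arrays, a rise of 0.66 (SE 0.0878, 1.58-fold, limma adjusted p = 0.000713). Its groups were separated by more than the spread of either. GINS2 rose by 0.77, GINS4 by 0.40 and GINS1 by 0.39 (limma adjusted p = 0.00375, 0.00579 and 0.00262). The GINS2 and GINS4 calls depended on the probe set: GINS2 stood at 0.03 (adjusted p = 0.857) on its brightest plain-name probe set and GINS4 at 0.13 (adjusted p = 0.195) with the mean of its probe sets. GINS2 (chr16:85688958-85689005, minus strand) held the reverse complement of TTTCCCGC at -31 to -24. CDC45 itself changed by 0.33 (95% interval 0.05 to 0.60), with a limma adjusted p of 0.0818, and was called higher in 3 of 16 alternatives, among them spike-in scaling (0.44, adjusted p = 0.011).
GINS2: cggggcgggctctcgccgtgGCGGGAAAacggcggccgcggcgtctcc

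Of the firing factors DBF4, CDC7, RECQL4 and TOPBP1, 1 fell, 1 rose and 2 were not called. DBF4, the activating subunit of the CDC7 kinase that phosphorylates the MCM ring, measured 10.48, 10.56 and 10.52 on the CDK4/6 siRNA arrays, against 10.79, 10.75 and 10.79 on the control arrays. It was lower on every CDK4/6 siRNA array with little spread in either group, and it fell by 0.25 (SE 0.0532, to 83.8% of control, limma adjusted p = 0.00712); scaled to the spike-ins the change was -0.15 and was not called. CDC7 changed by 0.16 (95% interval -0.01 to 0.34) with overlapping groups, and was called higher with spike-in scaling (0.27, adjusted p = 0.0257). The DBF4 stretch (chr7:87876470-87876515, plus strand) held the reverse of TTTGAA at -3 to 3, and DBF4 was the only member of 44 with a window that held these letters.
DBF4: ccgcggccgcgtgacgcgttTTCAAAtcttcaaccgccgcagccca

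RECQL4, a helicase that takes part in origin firing, measured 8.21, 8.24 and 8.17 on the CDK4/6 siRNA arrays, against 8.27, 8.17 and 8.04 on the control arrays. The groups overlapped, and the change was 0.04 (95% interval -0.11 to 0.20, limma adjusted p = 0.713). TOPBP1, the scaffold through which firing factors reach the ring, rose by 0.28 with a limma adjusted p of 0.0454. That was the largest adjusted p of the 30, and the call was lost with an adjusted p of 0.071, 0.081, 0.139 and 0.0919 when CDK4/6 siRNA replicate 1, 2 or 3 or control replicate 3 was left out. MCM8, a relative of the ring subunits known for a role in recombination, changed by 0.08 (95% interval -0.17 to 0.33).

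Among the 10 polymerase and primase genes, POLE3, POLE2, POLA2, POLA1 and POLD2 rose, with a median over the group of 0.25. None of the catalytic subunits of polymerase delta, polymerase epsilon or primase was called, whereas POLA1, the catalytic subunit of polymerase alpha, was. POLE3, a small histone-fold subunit of the leading-strand polymerase epsilon that also serves in chromatin remodelling, measured 10.20, 10.13 and 10.25 on the CDK4/6 siRNA arrays, against 9.53, 9.42 and 9.35 on the control arrays. With a change of 0.76 (SE 0.0661, 1.69-fold, limma adjusted p = 0.000115) it had the smallest p of all 52 genes, and the groups were far apart. POLE2, the second subunit of that enzyme, measured 9.17, 9.23 and 9.26 on the CDK4/6 siRNA arrays, against 8.78, 8.57 and 8.30 on the control arrays, a rise of 0.67 (SE 0.108, limma adjusted p = 0.00191). POLE, the catalytic subunit, changed by 0.17 (95% interval -0.01 to 0.34) and was called higher with spike-in scaling alone (0.27, adjusted p = 0.0315). The interval of POLE3 lies wholly above that of POLE, within 1 enzyme.

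POLA2, the accessory subunit of polymerase alpha, measured 7.49, 7.54 and 7.58 on the CDK4/6 siRNA arrays, against 7.21, 7.18 and 6.87 on the control arrays, a rise of 0.45 (SE 0.0894, limma adjusted p = 0.00553). That call was lost with the mean of its probe sets (0.15, adjusted p = 0.0873), and its brightest plain-name probe set stood at -0.06. POLD2, an accessory subunit of the lagging-strand polymerase delta, measured 8.63, 8.54 and 8.73 on the CDK4/6 siRNA arrays, against 8.37, 8.39 and 8.20 on the control arrays, a rise of 0.31 (SE 0.0745, limma adjusted p = 0.013). Neither gene had overlapping groups. POLA1 rose by 0.43 (limma adjusted p = 0.0215). Without CDK4/6 siRNA replicate 3 the group had 3 genes higher in place of 5, since POLA1 and POLD2 were then not called (adjusted p = 0.0702 and 0.0516); POLA1 was also not called without CDK4/6 siRNA replicate 2 (adjusted p = 0.0513). PRIM2, the large primase subunit, measured 7.92, 8.09 and 8.23 on the CDK4/6 siRNA arrays, against 8.13, 7.97 and 8.09 on the control arrays. Its groups overlapped fully, with a change of 0.02 (95% interval -0.18 to 0.21, limma adjusted p = 0.917). PRIM1, the catalytic primase subunit, changed by -0.02 (95% interval -0.18 to 0.13), POLD1, the catalytic subunit of polymerase delta, by -0.09 (95% interval -0.23 to 0.05), and POLD3, an accessory subunit, by 0.18 (95% interval 0.01 to 0.35), none of them called; scaled to the spike-ins, PRIM1 and POLD1 turned to 0.08 and 0.02, and POLD3 was called higher at 0.29 (adjusted p = 0.0159).

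**Figure D3:**
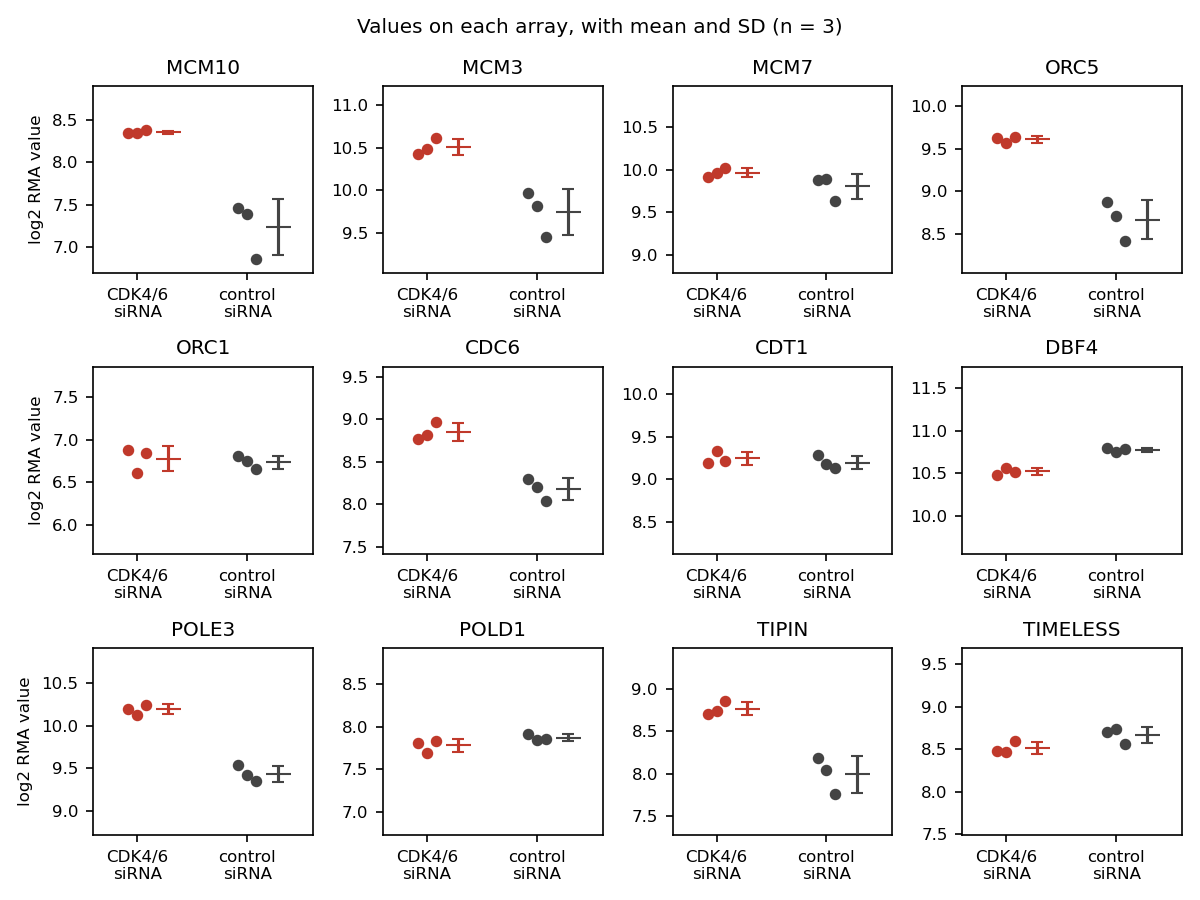
Each panel shows the log2 RMA values of 1 gene on the 3 CDK4/6 siRNA arrays (red, left) and the 3 control arrays (grey, right), with mean and SD beside them, on axes that span the same range of log2 units. MCM10, MCM3, ORC5, CDC6, POLE3 and TIPIN are separated upward and DBF4 downward, while ORC1, CDT1 and TIMELESS overlap and MCM7 and POLD1 are separated by little.

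In the clamp group 6 of 9 genes rose, with a median of 0.35. RFC3, a subunit of the loader that opens the clamp, measured 9.23, 9.33 and 9.32 on the CDK4/6 siRNA arrays, against 8.85, 8.70 and 8.40 on the control arrays, a rise of 0.64 (SE 0.104, limma adjusted p = 0.00195). FEN1, the nuclease that trims flaps between Okazaki fragments, measured 11.08, 11.06 and 11.27 on the CDK4/6 siRNA arrays, against 10.70, 10.62 and 10.16 on the control arrays, a rise of 0.64 (SE 0.131, limma adjusted p = 0.0061). Both were higher on every CDK4/6 siRNA array, and the third control array was again the lowest. RFC2, a small loader subunit, measured 8.88, 8.96 and 9.00 on the CDK4/6 siRNA arrays, against 8.68, 8.60 and 8.49 on the control arrays, a rise of 0.36 (SE 0.0664, limma adjusted p = 0.00404). PCNA, the sliding clamp, measured 12.05, 12.04 and 12.08 on the CDK4/6 siRNA arrays, against 11.82, 11.67 and 11.42 on the control arrays, a rise of 0.42 (SE 0.0944, 1.34-fold, limma adjusted p = 0.0102). Its CDK4/6 siRNA values were tightly grouped and all above the control values.

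On their brightest probe sets the loader subunits did not move together: RFC5 rose by 0.35 (limma adjusted p = 0.0123), RFC4 changed by 0.15 (95% interval -0.06 to 0.37), and RFC1, the large subunit, changed by -0.14 (95% interval -0.27 to -0.0022) without being called. Of the 2 further RFC5 probe sets, 1 was higher by 0.40 and 1 changed by -0.21 without being called. Averaged over its probe sets RFC5 stood at 0.18 and lost its call (adjusted p = 0.065). On these brightest probe sets the intervals of RFC2, RFC3 and RFC5 all lie above that of RFC1. RFC1 had another probe set almost as bright, at a mean level of 9.36 beside 9.40, which changed by 0.0018 and was not called. A dim RFC1 probe set, at a level of 3.85, changed by -0.08 and was not called. With the mean of its probe sets RFC1 stood at -0.07 and was not called. DSCC1, a subunit of an alternative clamp loader, rose by 0.33 (limma adjusted p = 0.0203). Its call was lost without CDK4/6 siRNA replicate 2 or 3 (adjusted p = 0.0579 and 0.0679) or control replicate 3 (adjusted p = 0.0507), and its second probe set changed by -0.22, so that their mean stood at 0.06 (adjusted p = 0.643). LIG1, the ligase that seals Okazaki fragments, measured 8.55, 8.56 and 8.64 on the CDK4/6 siRNA arrays, against 8.72, 8.68 and 8.49 on the control arrays. These groups overlapped, with a change of -0.04 (95% interval -0.21 to 0.12, limma adjusted p = 0.721) that turned to 0.06 with spike-in scaling.

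The 3 subunits of RPA, the complex that coats single-stranded DNA, did not share a direction. RPA2, the middle subunit, measured 9.74, 9.68 and 9.75 on the CDK4/6 siRNA arrays, against 9.42, 9.29 and 9.16 on the control arrays, a rise of 0.44 (SE 0.0726, limma adjusted p = 0.00227). RPA1, the large subunit, measured 11.70, 11.70 and 11.76 on the CDK4/6 siRNA arrays, against 11.62, 11.62 and 11.43 on the control arrays, with a change of 0.17 (95% interval 0.02 to 0.32, limma adjusted p = 0.103). RPA3, the small subunit, measured 10.62, 10.68 and 10.78 on the CDK4/6 siRNA arrays, against 10.95, 10.90 and 10.78 on the control arrays, with a change of -0.18 (95% interval -0.34 to -0.03, limma adjusted p = 0.0787). RPA2 was the only 1 of the 3 called here, and RPA1 was called higher in 3 of 17 alternatives, among them spike-in scaling (0.28, adjusted p = 0.0133). RPA3 was called lower in 4 of 17, and scaled to the spike-ins it stood at -0.07. The intervals of RPA2 and RPA3 do not overlap. Without control replicate 3 the change of RPA3 was -0.23 with an adjusted p of 0.0476.

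Among the fork protection genes TIPIN and CLSPN rose and TIMELESS and WDHD1 were not called. TIPIN measured 8.70, 8.74 and 8.85 on the CDK4/6 siRNA arrays, against 8.18, 8.04 and 7.76 on the control arrays, a rise of 0.77 (SE 0.102, 1.71-fold, limma adjusted p = 0.000728). TIMELESS, with which TIPIN forms a complex at the fork, measured 8.48, 8.47 and 8.60 on the CDK4/6 siRNA arrays, against 8.70, 8.74 and 8.56 on the control arrays. The partners thus stood apart: the TIMELESS groups overlapped, and its change of -0.15 (95% interval -0.31 to -0.0006, limma adjusted p = 0.136) has an interval wholly below that of TIPIN, 0.54 to 1.00. With the mean of its probe sets TIMELESS was called lower (-0.25, adjusted p = 0.0294). That mean took in a second probe set, at a level of 4.46, which changed by -0.36 and was itself not called. CLSPN, which encodes claspin, the mediator of checkpoint signals at the fork, measured 6.35, 6.34 and 6.44 on the CDK4/6 siRNA arrays, against 6.13, 5.80 and 5.68 on the control arrays, a rise of 0.51 (SE 0.106, limma adjusted p = 0.00719). Its groups did not overlap. The CLSPN control mean of 5.87 lay under the all-gene median level of 6.47. Its 3 other probe sets, at mean levels of 3.96, 3.65 and 3.44, changed by 0.12, 0.03 and 0.21, and none was called. With the mean of its probe sets CLSPN stood at 0.22 and kept its call (limma adjusted p = 0.0426). WDHD1, which links polymerase alpha to the helicase, measured 7.66, 7.63 and 7.78 on the CDK4/6 siRNA arrays, against 7.62, 7.61 and 7.26 on the control arrays, with a change of 0.20 (95% interval -0.03 to 0.42, limma adjusted p = 0.198). Its groups were separated by a narrow gap, and it was called higher with spike-in scaling (0.30, adjusted p = 0.0286) and on its plain-name probe set (0.23, adjusted p = 0.048), which had a mean level of 5.70. Another WDHD1 probe set, at a level of 7.30, changed by -0.01 and was not called. With the mean of its probe sets WDHD1 stood at 0.14 and was not called (adjusted p = 0.215). The TIPIN window (chr15:66386668-66386967, minus strand) held no match to the letters searched.
TIPIN: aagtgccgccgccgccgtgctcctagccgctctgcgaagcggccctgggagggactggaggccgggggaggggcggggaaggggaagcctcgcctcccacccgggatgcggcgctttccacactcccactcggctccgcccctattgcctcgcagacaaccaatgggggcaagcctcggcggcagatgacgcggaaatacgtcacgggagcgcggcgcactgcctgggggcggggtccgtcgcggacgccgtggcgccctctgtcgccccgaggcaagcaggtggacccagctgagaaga

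The array holds several probe sets for 28 of the 52 genes, which gives a second look at their changes. In a fit over all 54613 probe sets that are not controls, 29 of the 52 brightest probe sets were higher and 1 lower, beside 8.86% and 8.17% of all probe sets. Of the 43 other probe sets that name 1 of these genes alone, 17 were higher and 0 lower. Most of the agreement came from brighter probe sets: 12 of 20 with a mean level of at least 7 were higher, against 5 of 23 dimmer ones. Shares of all probe sets by level are not given here, so this split cannot be read as particular to these genes. The second probe set of CDC6 changed by 1.05, that of ORC5 by 0.81 and that of FEN1 by 0.79, and the 2 further probe sets of MCM10 by 0.87 and 0.79. MCM4 had 3 further probe sets that rose, by between 0.64 and 0.74, and another at -0.22 that was not called. POLA2 had 2 other probe sets with changes of -0.06 and 0.07, neither called. Probe sets of 1 gene share the same RNA and can target different transcripts, so they are not replicates. Across the 52 genes the change was unrelated to the mean level (Pearson r = -0.0089, Spearman rho = 0.011), a description over genes that share the same 6 arrays.

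**Figure D4:**
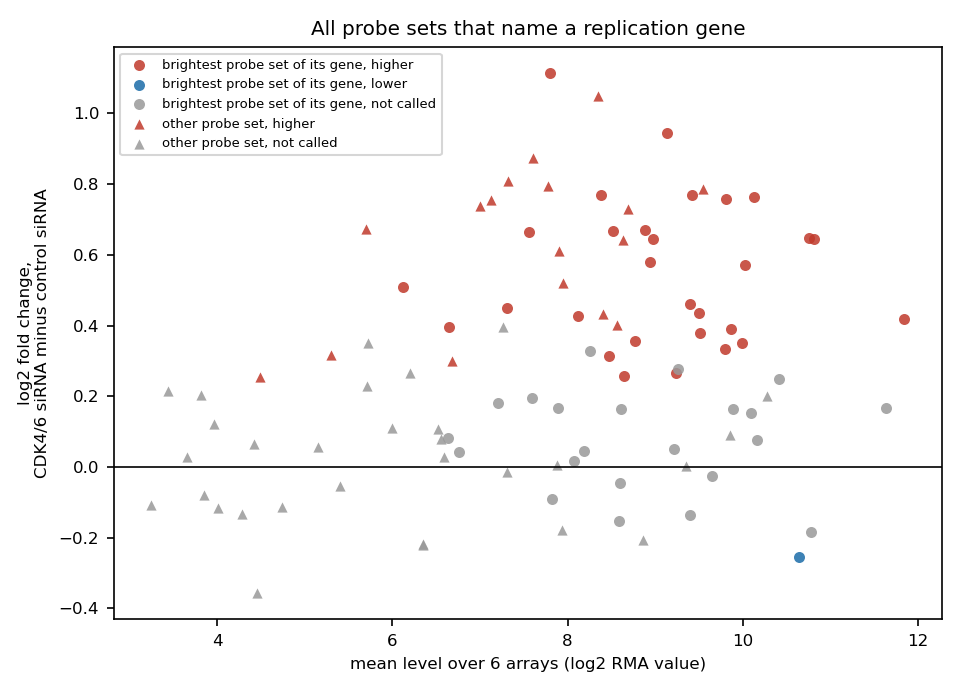
Each symbol is a probe set that names 1 of the replication genes, with its mean log2 RMA level over the 6 arrays on the horizontal axis and its log2 fold change (CDK4/6 siRNA minus control siRNA) on the vertical axis; circles stand for their gene and triangles are the other probe sets. Red triangles, the 17 other probe sets that were higher, lie mostly at levels of 7 or more, and no triangle is called lower.

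E2F-type letters were common in the start regions of these genes. A RefSeq window was held for 44 of the 52 genes, and for the 10 with several starts the outermost was used. The letters were found in 20 of 44 windows (45.5%), beside 3.34% of the 27305 windows of all genes and 4.40% of the 15384 windows of genes on the array. By role they were in 9 of 13 helicase genes, 4 of 9 polymerase and primase genes, 3 of 9 licensing genes, 3 of 8 clamp genes, 1 of 4 fork protection genes and 0 of 1 RPA gene. Of the 20 genes with the letters 15 rose, with a median change of 0.44, and of the 24 without them 10 rose and DBF4 fell, with a median of 0.22. The genes without the letters included MCM10, ORC5 and TIPIN, the 3 largest changes of all, and POLE3 and FEN1, whereas LIG1, CDT1, MCM7, MCM8 and POLE had the letters and were not called. The places of MCM10 and ORC5 depend on the exact strings searched, since their windows held TTTGGCGG and TTTCCGGC, which were not among them. Near matches in the other windows were not counted. Over all genes on the array with a window, 22.3% of the 677 with the letters were higher and 15.2% lower, beside 14.6% and 13.6% of the 14707 without them. The TTTGAA letters were in 1 of 44 windows, beside 15.5% of the windows of all genes.

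**Figure D5:**
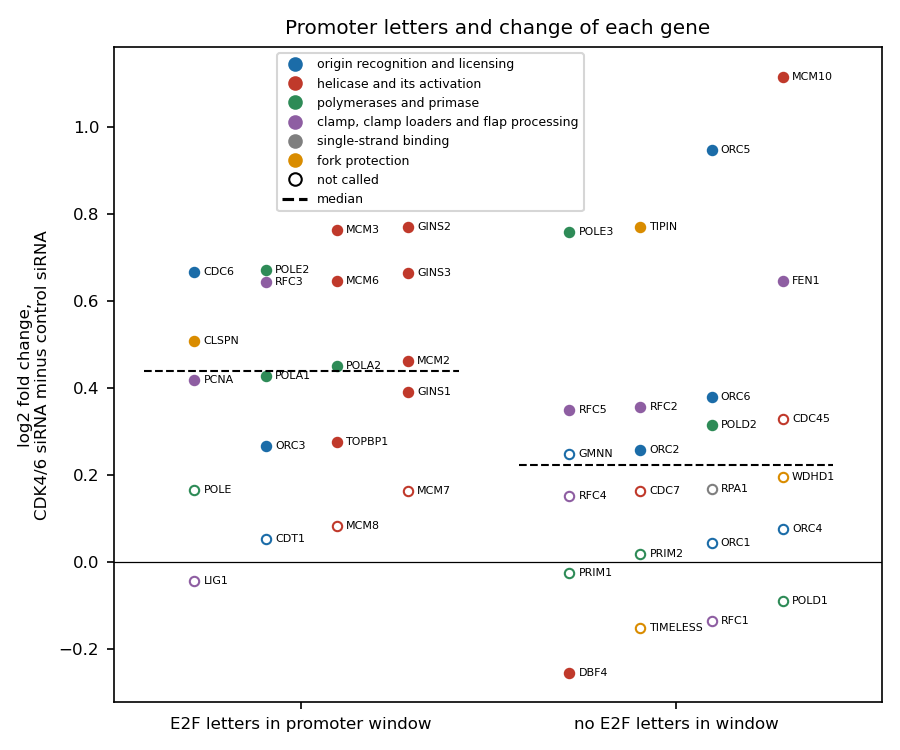
Points are the 44 genes with a promoter window, on the left those with E2F-type letters and on the right those without, with the log2 fold change (CDK4/6 siRNA minus control siRNA) on the vertical axis, colours for role, open points for genes not called and a dashed line at each median. The medians are 0.44 with the letters and 0.22 without, and the 3 highest points, MCM10, ORC5 and TIPIN, lie on the right. The split is by the exact strings searched. The MCM10 and ORC5 windows hold TTTGGCGG and TTTCCGGC, which were not among them, and near matches in other windows were not counted.

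Lists of genes around the replisome that are not among the 52 were read in the same fit, with no test between lists. Of 30 further replisome and fork genes, 28 were measured, and 4 rose (14.3%, beside 14.0% of all genes) and 4 fell (beside 12.9%), with a median of 0.06, so in this fit the list was called about as often as all genes. With the dimmest genes left out, 6 of 27 in this list were higher and 4 lower, beside 2986 and 2799 of 13183 genes. The 4 with the smallest adjusted p were 2 that rose and 2 that fell. ATR, the checkpoint kinase of stalled forks, rose by 0.78 (limma adjusted p = 0.000393), and RAD1, a subunit of the checkpoint clamp, by 0.39 (limma adjusted p = 0.00155). POLD4, the smallest subunit of polymerase delta, and TOP2B, a topoisomerase, fell by 0.40 and 0.28 (limma adjusted p = 0.00604 and 0.00621). Of 13 genes that control licensing and firing, 5 rose (38.5%, beside 14.0% of all genes) and 3 fell (beside 12.9%), with a median of 0.16. The G1/S cyclins CCNE2 and CCNE1 rose by 1.53 and 1.12 (limma adjusted p = 0.00035 and 7.15e-05), and CDC25A, the phosphatase that activates CDK2, by 1.02 (limma adjusted p = 0.000252). SKP2, which targets the CDK inhibitor p27 and CDT1 for degradation, rose by 0.54 (limma adjusted p = 0.00123). DTL, the remaining gene of the list that rose, did so by 0.79 (limma adjusted p = 0.00172) and was named after its value was seen. The 3 that fell, named after their values were seen, were CDK1, the mitotic kinase (-0.26), FBXO5, an inhibitor of the anaphase-promoting complex (-0.23), and CUL4B, a ubiquitin ligase scaffold (-0.22), with limma adjusted p of 0.023, 0.0151 and 0.0126. Of 17 E2F, DP, pocket protein and MuvB genes, 5 rose (29.4%, beside 14.0% of all genes) and 2 fell (beside 12.9%), with a median of -0.0024 that turned to 0.11 with spike-in scaling. Among them were the activator E2F3 with a rise of 0.49, E2F2 with 0.56, TFDP1 with 0.55 and E2F5 with 0.40 (limma adjusted p = 0.000389, 0.00466, 0.000697 and 0.00175). E2F6, the remaining gene of the list that rose, did so by 0.23 (limma adjusted p = 0.0354) and was named after its value was seen. The 2 that fell, named after their values were seen, were RB1, the retinoblastoma gene itself (-0.25), and LIN37, a MuvB subunit (-0.25), with limma adjusted p of 0.0267 and 0.0186. E2F1 changed by 0.04 and was not called (95% interval -0.09 to 0.16), also named after its value was seen.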

How the data were processed

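Total RNA of 6 HCT116 samples was measured on single-channel Affymetrix arrays. What the authors deposited is log2 expression made with RMA, per the submitters' processing notes. Neither the RMA version nor a genome build is given in the sources used here. RMA corrects background, equalises the distributions of the arrays and summarises the probes of a probe set, so shifts in the RNA content of cells leave no trace. The number of arrays limits the precision.

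Of 54675 probe sets, 62 were array controls and 41091 carried 1 gene symbol. By gene identifier, 41037 of these one-symbol probe sets matched RefSeq (GRCh38.p14), and 0 symbols were updated. Probe sets naming several genes were kept for members (4 of 99 probe sets), but 0 of them represented a gene. For each of 19775 genes the brightest probe set entered a linear model of limma 3.58.1 (lmFit, then eBayes; R 4.3.3) whose single term was the group, and p-values were adjusted over all genes by Benjamini-Hochberg, with calls at 0.05. Single values had a two-sided exact permutation test. The fit was tested on simulated data.

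The members, their role groups and the other lists were chosen with earlier results of these data known. Array values are given for CDK4 and CDK6, for up to 4 genes of each role group with the smallest adjusted p, for each gene called lower and for the gene of each group with the largest adjusted p. Of each other list up to 4 genes with the smallest adjusted p are named, and further genes were named after their values were seen. Of the list members, LRWD1 and ATRIP were not matched and are not analysed here.

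Replicate numbers are shared between the groups. Same-numbered arrays did not deviate together (correlations of -0.01, -0.12 and -0.0066), so the numbers were not used as a block. Alternatives were the replicate block, another scaling or normalisation, other choices of probe set, a filter on dim genes, other limma options, leaving out each array and a threshold of 0.01. Promoter letters were counted with no test. Figures were drawn with matplotlib 3.10.9.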

Additional observations from a re-analysis of the deposited data

How the results depend on the processing

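Of the 30 genes called higher, 18 kept the call in every alternative that could be run, and DBF4 lost its call with spike-in scaling alone. For the 52 genes the count of higher calls ran between 22 and 38. It was 22 at a threshold of 0.01, where polymerase and primase genes had 3, clamp genes 3, other replisome genes 2 lower, and licensing control and E2F lists 0 lower each. Scaling to spike-ins gave 0 members lower and a median of 0.44, with 0 helicase genes lower. It gave medians of 0.36 for licensing, 0.36 for polymerases and primase and 0.28 for RPA (2 higher), 10 other replisome genes higher and 1 lower (median 0.17), 8 licensing control genes higher and 0 lower (median 0.26) and 0 E2F list genes lower (median 0.11). PRIM1, POLD1 and LIG1 then stood at 0.0836, 0.0187 and 0.0636. The mean of all probe sets gave 2 members lower, medians of 0.18 for the clamp and 0.18 for fork protection (1 lower), 2 RPA genes higher, 0 E2F list genes lower (median 0.0306), CDT1 at -0.0625 and PRIM2 at -0.00735. With that mean 2558 of 19775 genes were higher and 2184 lower. Keeping to probe sets whose names lack the suffix of probes shared between transcripts measured 41 members. Of these, 23 were higher and 0 lower, beside 2030 and 1800 of 16782 genes. In this setting 7 helicase genes were higher and 0 lower, 1 licensing control gene and 1 E2F list gene were lower (E2F median 0.0209), POLA2 stood at -0.055 and DSCC1 at -0.22. Fewer genes were tested there. Leaving out the dimmest genes or quantile normalisation gave 2 members lower, with 1 RPA gene lower, and PRIM2 at -0.0107 under quantile normalisation. Of all genes, 2799 of 13183 were lower with the dimmest left out and 2710 of 19775 under quantile normalisation. Median centring gave an E2F median of 0.0138. The trend and robust options of limma gave 2 members lower, 2 RPA genes higher and 1 lower, and 8 other replisome genes higher. Shares of all genes called with these options, at the threshold of 0.01 or with 1 array left out are not given here. With 1 array left out, genes lower ran between 1 and 2 for all members, 0 and 1 for RPA and 0 and 2 for the E2F list. Polymerase and primase genes higher ran between 3 and 5, the median of other replisome genes between 0.0129 and 0.0791 and that of the E2F list between -0.0235 and 0.0386. Small changes turned sign with 1 array left out, ranging between -0.00697 and 0.126 for ORC1, -0.0219 and 0.208 for MCM8, -0.0175 and 0.101 for RECQL4, -0.0735 and 0.0195 for PRIM1, -0.0581 and 0.0987 for PRIM2 and -0.114 and 0.00012 for LIG1. With the replicate block 29 members were higher and 1 lower, and TOPBP1 was the only member whose call changed (adjusted p = 0.0663). The one-symbol rule changed no value, and the causes of the other differences were not tested. Replicate arrays were few, and signal near the floor of the array limits the dim probe sets.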
